A study of Mus musculus with 6 samples.

Results

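Macrophages labelled as sorted from iron-loaded mice with MLL-AF9 leukemia (MA9/FE) were compared with macrophages from iron-loaded mice without leukemia (WT/FE). Both sides of the comparison carried the iron load, and the leukemia was the planned difference. Each side is 1 library, so differences between animals, sorts and library preparations cannot be told apart from it. The genes described are the protein-coding genes with an FPKM (fragments per kilobase of exon, scaled to the mapped fragments of the library) of at least 1 in either library. They number 10976 of the 21995 protein-coding genes that could be matched to an annotation and of the 54532 genes measured. FPKM was at or above 1 in both libraries for 10434 of them, in MA9/FE alone for 302 and in WT/FE alone for 240. Evc, at 0.502 in WT/FE and 1.001 in MA9/FE, lay just inside this limit, and Zfp11, at 0.999929 and 0.696, just outside.

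The series holds RNA-seq of 6 libraries from C57BL/6 mice, 1 for each condition. The 4 macrophage libraries came from WT mice, WT mice given iron (WT/FE), mice with MLL-AF9 leukemia (MA9) and leukemic mice given iron (MA9/FE), and the other two held the leukemia cells themselves, from mice without and with iron. Leukemic mice were recipients of GFP+ cells carrying MLL-AF9, a fusion of MLL with AF9 delivered by a retrovirus into c-kit+ marrow cells, and the macrophages were taken from the GFP- fraction. Mice were 6 to 8 weeks old. The iron load was iron dextran at 25 mg/mL, of which 0.2 mL was injected into the peritoneum on 6 alternate days, with PBS in its place in mice without iron. The macrophage gate of the methods (Gr-1 low, F4/80+, CD115 intermediate, low to intermediate side scatter) selects for macrophage markers and against granulocytes. Whether animals were pooled is not given in the sources used here. The sample labels give spleen as the source of the macrophages while the methods describe bone marrow. With 1 library a condition, every difference below is between 2 libraries, with no replicate check, no test and no p-value.

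Macrophages of blood-forming tissue clear dying cells and recycle iron from red cells: heme is opened by heme oxygenase, iron is stored in ferritin and leaves through ferroportin. In acute myeloid leukemia they share their niche with immature myeloid blasts, which make the primary granule enzymes of early neutrophil development. Secondary granule proteins such as lactoferrin come later in that development, and S100a8 and S100a9 together form calprotectin, which mature neutrophils and monocytes carry in large amounts.

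The identity of the libraries was checked first. All 19 macrophage lineage markers were measured above the limit in at least one library; Csf1r, the receptor of macrophage colony-stimulating factor, was at 111 FPKM in WT/FE and 98.1 in MA9/FE, and Adgre1, which encodes F4/80, at 54.5 and 52.4. All 16 B cell markers were present as well and at higher levels, their summed FPKM being 2665 in WT/FE and 2724 in MA9/FE against 995 and 1124 for the macrophage markers. Cd79a, a chain of the B cell receptor complex, was at 693 and 802 FPKM but at 0.9996 in the MA9/FE leukemia cells. Natural killer cell markers (12 of 12 measured, summed FPKM of 180 and 212) and dendritic cell markers (12 of 12, 596 and 566) were also present, whereas Pecam1 was the only one of 14 stromal and endothelial markers above the limit. The libraries therefore held RNA of several cell types beside macrophages. In such bulk RNA, fewer cells of a type and less RNA per cell cannot be told apart. Their part in the results below was not tested. The depth that the FPKM steps imply was 16799354 reads in WT/FE and 16085342 in MA9/FE.

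Most genes differed little between the libraries: 9290 of the 10976 genes, 84.6%, were within a fold of 1.5. At least 2-fold higher FPKM in MA9/FE was found for 223 genes (2.03% of the genes compared) and at least 2-fold lower for 67 (0.61%). Of the higher genes, 19 were past a fold of 4 and 11 past a fold of 8; no gene was 4-fold lower. The higher genes were short, with a median exon length of 1852 bases against 4340 over all genes. After the dependence on exon length described further below was removed, 126 genes were at least 2-fold higher (1.15%) and 112 lower (1.02%). Of the original genes, 115 of the 223 and 40 of the 67 were among them. Fold changes are given as log2 of FPKM + 1 after scaling by the trimmed mean of M values, which understates the difference of genes with low values. On this scale 5507 of the 10976 genes were above 0.

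The largest differences were in neutrophil granule and S100 genes. Of the 15 genes of this list that met the limit, 11 were at least 2-fold higher in MA9/FE and none lower, with a median log2 fold of 3.55 against 0.00 over all genes. Most of them met the limit only through MA9/FE, and over all 18 genes of the list, with no limit, the median was 2.12. S100a8 (chr3:90668978-90670035), a calcium-binding subunit of calprotectin, was at 0.172 FPKM in WT/FE and 209 in MA9/FE. These values rest on 2 reads against 2332, a ratio of 1184 (95% interval 327 to 9785) and a log2 fold of 7.46. Intervals given here cover counting error only, as reads without molecular identifiers are not independent molecules. S100a9, its partner, was at 1.03 and 342 FPKM, a ratio of 324 (170 to 709). Ngp, a neutrophil granule protein (chr9:110419747-110423012), was at 0.390 and 169 FPKM, a ratio of 423 (214 to 980). Camp, the precursor of the antimicrobial peptide cathelicidin, was listed at 0 in WT/FE and at 117 FPKM in MA9/FE, at least 483-fold higher when set against a floor of 3 reads in that library. Ltf, lactoferrin, which binds iron, was at 0.0690 and 39.8 FPKM, from 4 and 2210 reads. Lcn2, lipocalin-2, which binds bacterial siderophores and so withholds iron, had 1 read in WT/FE and 953 in MA9/FE, a ratio of 968 (173 to 38272). Chil3, a chitinase-like protein also used as a marker of alternatively activated macrophages, was at 1.28 and 43.4 FPKM. The other list members were less far apart: Ly6g, the antigen read by many Gr-1 antibodies, was listed at 0 and at 1.98 FPKM, while Ifitm6 (47.2 and 51.0), Cxcr2 (0.742 and 1.08), Ltb4r1 (4.10 and 5.89) and Mmp9 (3.90 and 3.46) did not reach a fold of 2.

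Genes of the primary, or azurophil, granule followed. Of 14 measured genes of the azurophil granule and myeloid progenitor list, 8 were at least 2-fold higher and none lower, with a median log2 fold of 1.33. Several of them, Elane, Prtn3, Ms4a3, Cebpe, Fcnb and Cd34, met the limit only through MA9/FE, which raises this count and median. Over all 15 genes of the list, with no limit, the median was 1.05. Elane, neutrophil elastase, was at 0.968 FPKM in WT/FE and 29.4 in MA9/FE, a ratio of 29.5 (18.0 to 52.1). Prtn3, proteinase 3, was at 0.756 and 17.7 FPKM, and Mpo, myeloperoxidase, at 1.53 and 22.9, a ratio of 14.6 (11.7 to 18.3). Ctsg, cathepsin G, was at 1.498 and 16.1. Early progenitor genes of the same list did not reach a fold of 2 on this scale and lay on both sides. The receptors Kit (24.4 and 16.2 FPKM, log2 fold -0.60) and Flt3 (42.6 and 29.3, -0.56) were below 0, and the surface antigen Cd34 (0.367 and 1.20, 0.67) and the transcription factor Myb (4.08 and 7.91, 0.78) above it.

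Both groups were set beside the leukemia cells, which express them too. For each gene at least 2-fold higher, the FPKM gained in MA9/FE macrophages over WT/FE macrophages was taken as a percentage of the FPKM in MA9/FE leukemia cells. For the 11 S100 and secondary granule genes this was 42.3% at the median, from 13.2% for Cd177 to 116% for Wfdc21, with 99.1% for Ltf, 42.3% for S100a9 and 35.8% for S100a8. For the 8 genes of the azurophil granule and myeloid progenitor list it was 4.52% at the median, from 1.26% for Ctsg to 51.1% for Nkg7. Elane was at 2.24% and Mpo at 2.88%. Nkg7, at 22.3 FPKM in WT/FE and 48.4 in MA9/FE, stood apart in that list, and the next highest share was 8.67% for Fcnb. MLL-AF9 target genes did not follow the granule genes. Hoxa9, a homeobox gene that MLL fusions hold active, was below the limit in both macrophage libraries at 0.128 and 0.724 FPKM, against 41.0 in MA9/FE leukemia cells. Of 7 measured MLL-AF9 target genes none was past a fold of 2 in either direction, with a median log2 fold of -0.14 (0.01 without the length trend). Cdk6 was at 4.47 and 4.62 FPKM against 72.2 in the leukemia cells. As a share of the leukemia level, the excess was smaller at the median for the genes of the azurophil list than for the secondary granule genes. The ranges overlap through Nkg7 alone. The part of leukemia cell RNA in these differences was not tested.

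**Figure D1:**
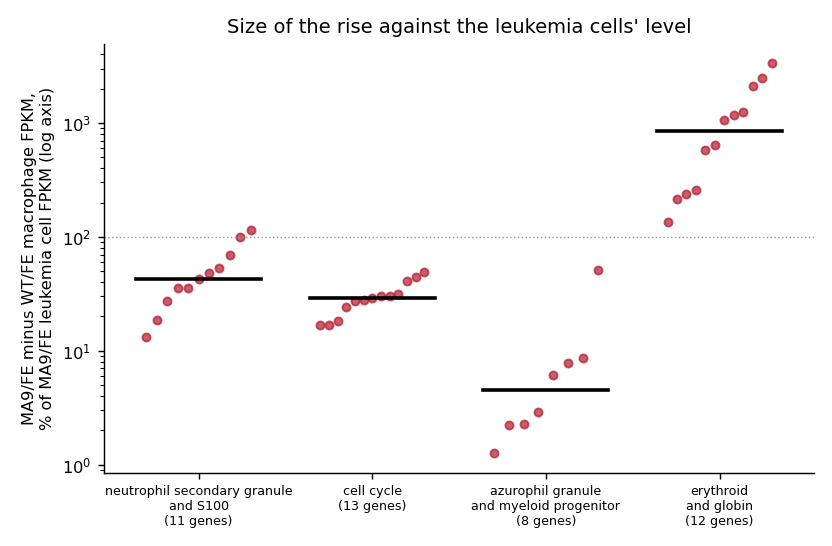
FPKM of MA9/FE minus WT/FE macrophages as a percentage of the FPKM in MA9/FE leukemia cells (log axis), for the genes of 4 lists that were at least 2-fold higher in MA9/FE macrophages. Each point is a gene, black bars are medians and the dotted line marks 100%. The S100 and secondary granule genes centre on 42.3%, the genes of the azurophil granule and myeloid progenitor list on 4.52%, and the erythroid genes lie above 100%.

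Basophil and erythroid genes were higher as well. Of 10 basophil and mast cell genes, 4 were at least 2-fold higher and none lower (median log2 fold 0.87): Prss34, a basophil protease, was at 4.65 and 38.4 FPKM, Mcpt8, the basophil granule protease, at 2.68 and 19.0, Fcer1a, the IgE receptor chain, at 1.31 and 4.42, and the transcription factor Gata2 at 2.03 and 5.55. The read number behind Prss34 did not come out whole, so its reads may be shared with a neighbouring gene. Of 18 erythroid and globin genes, 12 were at least 2-fold higher and none lower, with a median log2 fold of 1.33. Klf1, the transcription factor of globin switching and red cell maturation, was at 3.27 FPKM in WT/FE and 15.0 in MA9/FE, a ratio of 4.47 (3.52 to 5.74). Gata1, the transcription factor of red cell commitment, was at 1.22 and 6.30, and Car2, a carbonic anhydrase, at 13.8 and 47.7. The alpha globin Hba-a1 was at 75.6 and 210 FPKM and the beta globin Hbb-bs at 90.8 and 181, but near-identical globin copies make the split between them uncertain. None of the 12 higher erythroid genes had a higher FPKM in the leukemia cells than in MA9/FE macrophages: Klf1 was at 1.10 there, Gata1 at 0.207 and Car2 at 1.60. Over all genes compared, 49.3% had a higher FPKM in MA9/FE leukemia cells than in MA9/FE macrophages. Among all 223 genes at least 2-fold higher the share was 57.4%. Tfrc, the transferrin receptor that both erythroid and cycling cells need for iron, was at 18.0 and 17.1 FPKM and Slc25a37, the mitochondrial iron importer mitoferrin, at 35.1 and 24.6.

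Cell cycle genes were higher without exception. All 22 listed genes had a log2 fold above 0, against 5507 of 10976 over all genes. The folds ran from 0.58 (Mcm4) to 1.93 (Ube2c), with a median of 1.07, and 13 were at least 2-fold higher. Ube2c, the ubiquitin-conjugating enzyme of the anaphase-promoting complex, was at 5.49 FPKM in WT/FE and 24.5 in MA9/FE, a ratio of 4.33 (3.76 to 5.0). Cdc20, which activates that complex, was at 10.3 and 37.0, Ccnb1, cyclin B1, at 2.95 and 12, and the replication clamp Pcna at 49.7 and 97.3. The replication licensing genes Mcm2 to Mcm7 had log2 folds from 0.58 (Mcm4) to 1.03 (Mcm5). All 13 cell cycle genes past a fold of 2 had higher FPKM in the leukemia cells, against 57.4% of all 223 genes at least 2-fold higher. The gain of these 13 in MA9/FE macrophages came to 29.2% of the leukemia level at the median (16.7% to 49.1%).

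Since these genes were higher together, their promoters were searched for motifs of factors known to act on them. Sequences were taken from RefSeq (GRCm38.p6), 250 bases before each annotated start, 1 promoter a gene, and the motifs were chosen after the expression values were known. The motif TTGCNNAA of C/EBP factors, which drive granule genes, was found on either strand in 6 of the 10 higher S100 and secondary granule genes with a promoter entry (Lcn2, Ltf, Ly6g, Ngp, Retnlg and S100a9), against 9.55% of all 27025 promoters. TTTGAA, the core of the cell cycle homology region (CHR) that the DREAM complex and MuvB read, was found in 5 of 11 higher cell cycle genes with an entry, against 16.3% of all promoters. For the erythroid genes, whose factor Gata1 reads GATA motifs, the letters AGATAA were found in 2 of 9 against 10.3%. A match is a description of the letters and not a site, and none says only that the letters are not in this window. The promoters of S100a9 (chr3:90695722-90695971, minus strand) and Ngp (chr9:110419558-110419807, plus strand) are shown as the genes with the largest differences that hold the C/EBP motif, and those of Cdc20 (chr4:118437344-118437593, minus strand) and Ube2c (chr2:164769679-164769928, plus strand) for the CHR core. They are written 5′ to 3′ on the strand of the gene, with the motif in capitals.
S100a9: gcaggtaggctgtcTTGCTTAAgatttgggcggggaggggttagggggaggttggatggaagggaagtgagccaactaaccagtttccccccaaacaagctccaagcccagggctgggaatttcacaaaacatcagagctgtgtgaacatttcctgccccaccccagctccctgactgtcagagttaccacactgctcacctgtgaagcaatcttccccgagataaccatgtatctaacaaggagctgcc
Ngp: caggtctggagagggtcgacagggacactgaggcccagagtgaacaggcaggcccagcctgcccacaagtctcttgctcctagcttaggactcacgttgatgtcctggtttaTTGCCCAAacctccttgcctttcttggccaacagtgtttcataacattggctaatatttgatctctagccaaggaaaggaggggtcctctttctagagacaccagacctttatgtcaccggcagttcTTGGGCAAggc
Cdc20: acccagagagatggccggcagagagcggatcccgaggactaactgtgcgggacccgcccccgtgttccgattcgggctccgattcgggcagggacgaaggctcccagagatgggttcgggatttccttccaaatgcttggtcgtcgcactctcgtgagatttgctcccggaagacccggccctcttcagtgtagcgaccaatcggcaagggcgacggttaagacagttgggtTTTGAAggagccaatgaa
Ube2c: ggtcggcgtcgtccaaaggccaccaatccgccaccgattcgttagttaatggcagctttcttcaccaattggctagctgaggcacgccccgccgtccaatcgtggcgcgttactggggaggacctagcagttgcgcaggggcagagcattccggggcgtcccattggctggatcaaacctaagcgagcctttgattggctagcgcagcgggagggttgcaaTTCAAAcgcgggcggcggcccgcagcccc
Ngp held the C/EBP motif at 11 and 138 bases before the start, S100a9 only at 236. In Cdc20 and Ube2c the CHR core lay 18 and 29 bases before the start.

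**Figure D2:**
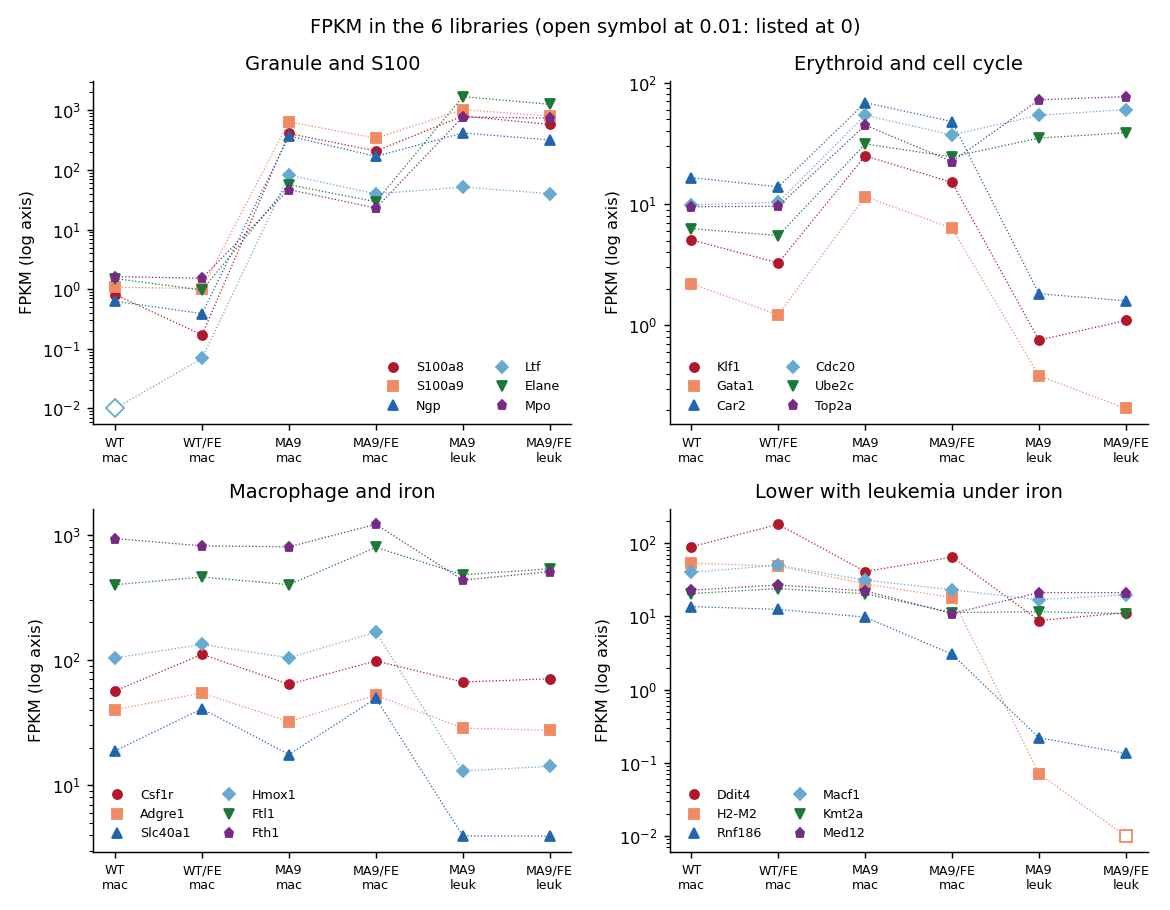
FPKM (log axis) of 24 genes in the 6 libraries: 4 macrophage libraries (mac) and the leukemia cell libraries (leuk), 1 library a condition. Open symbols at 0.01 stand for genes listed at 0; dotted lines join the values of a gene. S100a8, S100a9 and Ngp are low in both libraries without leukemia and high in the other 4, whereas the erythroid genes Klf1, Gata1 and Car2 are low in the leukemia cells.

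None of the 19 macrophage lineage markers was past a fold of 2 in either direction, which is near the share over all genes (2.03% higher and 0.61% lower), and their median log2 fold was -0.10, with 6 of 19 above 0. Lyz2, lysozyme, was at 375 FPKM in WT/FE and 528 in MA9/FE, and the scavenger receptor Marco, the gene of the list with the largest difference, at 5.69 and 11.2 (log2 fold 0.84). Cd68, a lysosomal glycoprotein, was at 84.1 and 91.6, Sirpa, the receptor for the CD47 signal that restrains engulfment, at 126 and 103, and Mertk, which takes up dying cells, at 20.0 and 15.7. Of 10 red pulp macrophage genes none was past a fold of 2 (median 0.20): Cd5l, a secreted protein of tissue macrophages, was at 44.1 and 81.6 FPKM, Spic, the factor that specifies iron-recycling macrophages, at 27.6 and 31.8, and Vcam1 at 46.0 and 44.5.

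Iron genes were of interest because both libraries came from iron-loaded mice. Of 10 measured genes of iron storage, export and heme breakdown none was past a fold of 2, and their median log2 fold was 0.41. Above 0 were 8 of the 10, against 5507 of 10976 over all genes. Ftl1, ferritin light chain, was at 458 FPKM in WT/FE and 789 in MA9/FE, a ratio of 1.67 (1.63 to 1.72), and Fth1, ferritin heavy chain, at 812 and 1206. Blvrb, a biliverdin reductase, was at 18.8 and 38.7, Hmox1, heme oxygenase, at 133 and 167, and Slc40a1, ferroportin, at 40.8 and 49.4. Slc11a1, the phagosomal metal transporter of the same list, was at 31.7 and 29.4, below 0. The list's median was 0.28 once the length trend was removed, and ferritin pseudogenes make the ferritin values uncertain. Of 14 genes of iron uptake and sensing none was past a fold of 2 (median -0.06, and 0.05 without the length trend). Tfr2, the second transferrin receptor, was at 1.02 and 2.97, and Lrp1, which takes up heme bound to hemopexin, at 17.4 and 11.6. Of 15 antioxidant and ferroptosis genes none was past a fold of 2 (median 0.14): Prdx1, a peroxiredoxin, was at 37.9 and 74.8 FPKM, and Gpx4, which reduces lipid peroxides, at 44.2 and 73.6.

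Few genes of macrophage effector functions were past a fold of 2, as was so over all genes. The 3 C1q chains, which tag debris for uptake, were higher by like amounts: C1qa was at 137 FPKM in WT/FE and 223 in MA9/FE, C1qb at 124 and 201, and C1qc at 73.6 and 125, in a list of 9 complement genes with a median of 0.40. Of 12 genes linked with M2 macrophages, 2 were past a fold of 2, Chil3 and Il10 (1.14 and 3.46 FPKM), while Mrc1 (19.4 and 17.1), Cd163 (9.18 and 7.97) and Tgfb1 (59.5 and 58.1) were not, for a list median of -0.08. Of 8 genes linked with M1 macrophages none was (median 0.20); the cytokine Il1b was at 35.3 and 62.1. Of 17 checkpoint and costimulation genes none was past a fold of 2 (median -0.16): Cd274, which encodes PD-L1, was at 44.5 and 37.1, Havcr2, which encodes TIM-3, at 42.3 and 29.5, and Lgals9, its ligand galectin-9, at 30.03 and 44.5. Of 16 genes of efferocytosis and scavenging none was (median -0.08). Among Toll-like receptor and adaptor genes, 13 of 17 were below 0 and 4 above it (median -0.22), against 5507 of 10976 above 0 over all genes. Tlr5, the flagellin receptor, was lower by over 2-fold at 3.79 and 1.21 FPKM, and Tlr9, which reads CpG DNA, was at 48.3 and 27.1. Among lysosomal genes, Ctsd, cathepsin D, was the only one of 20 past a fold of 2, at 54.9 and 116.

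Interferon and antigen presentation genes did not differ as groups by a fold of 2. Of 21 type I interferon response genes only Isg15 was past a fold of 2, at 16.6 and 37.8 FPKM (median of the list 0.20), and of 18 interferon-gamma response genes none was (median 0.20). MHC class II genes, of which Cd74 had the highest FPKM of the protein-coding genes in both libraries, had a median log2 fold of 0.01 (-0.17 without the length trend): Cd74, the invariant chain, was at 7042 FPKM in WT/FE and 8144 in MA9/FE, and H2-Eb1 at 3646 and 4100, while Ciita, their transactivator, was at 84.5 and 50.5. B cell genes had a median of -0.16 with none of 16 past a fold of 2. Plasma cell genes were higher (Jchain, Mzb1 and Fkbp11 of 12 past a fold of 2, median 0.85): Jchain, the joining chain of secreted IgM and IgA, was at 601 and 1686 FPKM and, within a fold of 2, Xbp1, which drives secretory capacity, at 86.0 and 158. T cell genes split, with 3 of 12 higher by over 2-fold and a median of 0.54: Cd8b1 was at 1.24 and 11.8, Cd3d at 1.21 and 5.86 and Cd3g at 0.838 and 3.33, while Cd4 was at 31.6 and 16.8. Cd3g, Cd247 and Cd3e met the limit only through MA9/FE. With no limit, the median over all 15 T cell genes was 0.49. Of 10 inflammatory monocyte genes 2 were higher and 1 lower by over 2-fold (median 0.38): Ly6c2, which encodes the Ly6C antigen, was at 9.43 and 49.8 and Hp, haptoglobin, at 6.12 and 18.0, whereas Ace, expressed by nonclassical monocytes, was lower at 46.0 and 22.2.

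Chaperone, ribosomal protein and respiratory chain genes lay mostly above 0. Of 14 heat shock and chaperone genes 13 were above 0 and 3 past a fold of 2 (median 0.75): Hspa1a was at 6.48 and 28.5 FPKM, Hspa1b at 8.81 and 36.9, a pair of near-identical genes whose reads may be split arbitrarily, and Hsp90b1, the chaperone of the endoplasmic reticulum, at 131 and 289. All 40 cytosolic ribosomal protein genes were above 0, against 5507 of 10976 over all genes. None was past a fold of 2, with a median log2 fold of 0.63 and values up to 0.93 (Rpl41). Rplp1 was at 2213 FPKM in WT/FE and 3752 in MA9/FE. All 22 nuclear-encoded respiratory chain genes were above 0 as well (median 0.57), with Ndufb3 alone past a fold of 2 at 26.1 and 54.9. These groups are short: the median exon length was 1730 bases for the ribosomal protein genes and 2276 for the respiratory chain genes. With the length trend removed, their medians were 0.33 and 0.36, that of the 13 genes of the mitochondrial genome went from 0.49 to 0.01, and that of 9 clustered histone genes from 0.49 to -0.12.

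The remaining lists were mixed. Of 5 eosinophil genes, Prg2, which encodes the major basic protein, was at 12.1 and 40.3 FPKM and Prg3 at 0.502 and 3.01 (median 0.20). Of 8 chemokine genes 3 were past a fold of 2: Pf4, platelet factor 4, at 0.991 and 5.61, Ccl4 at 18.1 and 43.1 and Cxcl2 at 0.0864 and 1.20, the last from few reads. The chemokine median was 0.58, and 0.11 without the length trend. Pf4 and Cxcl2 met the limit only through MA9/FE, which raises this count and median. With no limit, the median over 14 chemokine genes was 0.12. Pf4 was also the only one past a fold of 2 among 7 megakaryocyte and platelet genes (median -0.05, and 0.13 without the length trend), and Atf3 (32.5 and 76.3) the only one among 18 immediate early genes (median 0.21). None was past it among 14 MHC class I presentation genes (median 0.37), 17 glycolysis genes (0.32), 15 actin and WASP genes (0.18), 10 Fc receptor genes (0.15, and -0.15 without the length trend) and 14 genes of lipid efflux (-0.02). Values ran from 41.5 to 83.7 FPKM for the glycolytic Pgk1, from 1928 to 2995 for B2m, the light chain of MHC class I, and from 308 to 453 for Apoe, which carries lipid.

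**Figure D3:**
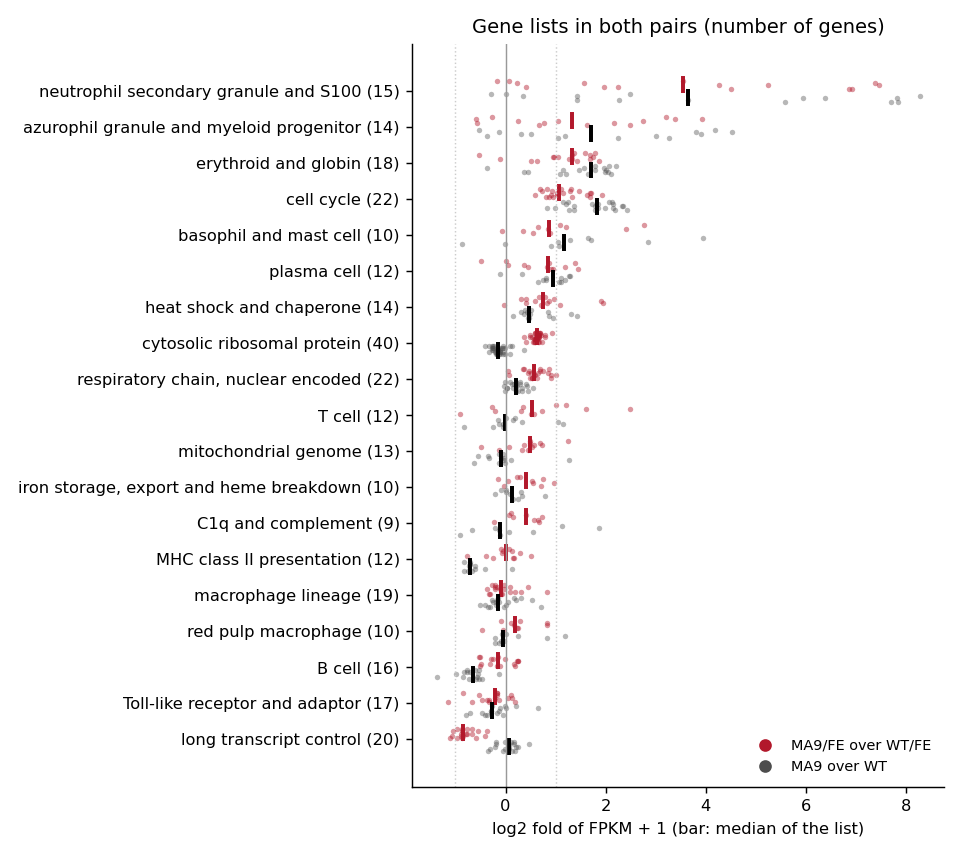
log2 fold of FPKM + 1 for the measured genes of 19 lists (number of genes in brackets), MA9/FE over WT/FE in red and MA9 over WT in grey; points are genes, bars are list medians and dotted lines mark a fold of 2. The granule, erythroid and cell cycle lists lie to the right in both pairs, while the medians of the ribosomal protein list (0.63 and -0.16) and the long transcript list (-0.86 and 0.07) differ in sign between the pairs.

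The genes lower in MA9/FE were fewer and less far from WT/FE. Rnf186, a ubiquitin ligase (chr4:138967112-138968360), was at 12.5 FPKM in WT/FE and 3.04 in MA9/FE, a ratio of 0.236 (0.176 to 0.314) and the lowest log2 fold, -1.77, among genes with 100 or more reads. Ddit4, an inhibitor of mTORC1 induced by stress (chr10:59949669-59951834), was at 181 and 64.5 FPKM, from 5335 and 1820 reads. H2-M2, a class Ib MHC gene, was at 48.5 and 18.1, and Vasn, which encodes a membrane protein that binds TGF-beta, at 13.2 and 3.95. The same group held the zinc finger gene Zfp871 (18.1 and 5.30), whose reads did not come out whole, the X-linked lymphocyte gene Xlr3b (3.95 and 0.905), Eif3j2 (3.33 and 0.549), which has a near-identical relative, and 9930111J21Rik1 (11.2 and 3.65). It also held Ryr3, a calcium release channel (6.84 and 2.04), Gm19345 (14.6 and 5.38), the sodium channel gene Scn3a (2.84 and 0.629) and Med12, a subunit of the Mediator kinase module (26.9 and 11.0). Over all 67 genes at least 2-fold lower, the median exon length was 4777 bases, against 4340 over all genes compared.

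The fold depended on exon length. Across the 10976 genes the Spearman correlation of the log2 fold with exon length was -0.504, a description over genes, which are not independent replicates. Genes were cut into 10 bins of equal number by exon length. In the bin of the shortest genes, with a median of 1254 bases, the median log2 fold was 0.45 and 82.9% of genes were higher in MA9/FE. In the bin of the longest, with a median of 12030 bases, it was -0.32 and 15.2% were higher. Every bin between them was lower than the one before, crossing 0 between medians of 3990 and 4709 bases. The shortest bin took 7.53% of the reads of these genes in WT/FE and 10.7% in MA9/FE, and the longest 14.5% and 10.6%. Of the 223 genes past a fold of 2 upward, the shortest bin held 100 and the longest 1. Those past it downward did not follow the trend in this way, as the shortest bin held 20 of the 67 and the longest 22.

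**Figure D4:**
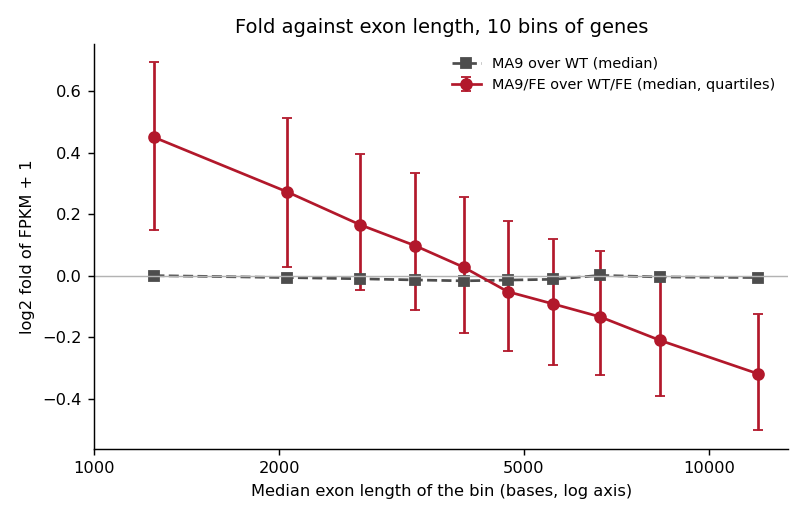
Median log2 fold of FPKM + 1 in 10 bins of genes ordered by exon length (log axis, bases), for MA9/FE over WT/FE (red circles, bars between the lower and upper quartiles) and MA9 over WT (grey squares). The red medians run from 0.45 in the shortest bin to -0.32 in the longest, and the grey medians stay near 0.

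With genes split into 3 equal groups by mean FPKM, the same correlation was -0.642 in the group of highest FPKM and -0.300 in the lowest. It ranged from -0.464 to -0.580 over 3 groups by GC content of the longest transcript, while GC content itself had a correlation of -0.004 with the fold. It was -0.412 over the 964 genes with 1 annotated transcript and -0.495 over the 10400 genes in none of the lists. Long genes of unlike function lay together: of 20 long transcripts listed for this check all were below 0 (median -0.86) and 3 past a fold of 2: Macf1, a cytoskeletal linker (49.9 and 23.2 FPKM), Kmt2a, the mouse gene of MLL itself (24.0 and 11.3), and Kmt2d, another histone methyltransferase (29.97 and 14.4). For the MA9 and WT libraries without iron the correlation was 0.012, their bin medians staying between -0.02 and 0.00. The other pairs share a library with those already given: it was 0.283 for WT/FE over WT and -0.453 for MA9/FE over MA9. Length, the library and the condition cannot be told apart with 1 library each.

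The pair without iron, MA9 over WT, shares no library with the iron-loaded pair and was set beside it. By the same rule it held 11027 genes, of which 435 were at least 2-fold higher with leukemia (3.94%) and 32 at least 2-fold lower (0.29%). Over the 10805 genes in both sets, 151 were past a fold of 2 upward in both pairs, 69.3% of the 218 with iron and 37.2% of the 406 without. Downward, 4 were past it in both, 6.67% of the 60 with iron and 12.9% of the 31 without: Ddit4 (89.3 FPKM in WT and 41.0 in MA9), Xlr3b (3.37 and 0.529), Sumo2 (40.9 and 19.0, against 45.02 and 20.4 with iron) and Gm17545, a gene of 72 bases of exon. Across genes the log2 folds of both pairs had a Pearson correlation of 0.603 and a Spearman correlation of 0.429, and 0.659 and 0.523 with the length trend removed from both.

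The granule genes were higher in both pairs. S100a8 was at 0.812 FPKM in WT and 410 in MA9, S100a9 at 1.08 and 646, Ngp at 0.629 and 372, and Elane at 1.51 and 56.8. FPKM in MA9/FE was below that in MA9 for 10 of the 11 higher S100 and secondary granule genes and for all 13 higher cell cycle genes, the ratio being 0.509 and 0.680 at the median. List medians without iron were 3.64 for the S100 and secondary granule list, 1.71 for the azurophil list, 1.71 for the erythroid list and 1.82 for the cell cycle list. Other lists differed between the pairs: ribosomal protein genes had a median of 0.63 with iron and -0.16 without, long transcripts -0.86 and 0.07, MHC class II genes 0.01 and -0.71, and B cell genes -0.16 and -0.66. The summed FPKM of the B cell markers was 2803 in WT and 1610 in MA9, against 2665 and 2724 with iron. The ferritin genes were level without iron, Ftl1 being at 398 in both, and C1qa was at 67.7 and 62.8. Whether any of these differences exceeds the spread between mice could not be tested.

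Lars2, a mitochondrial leucyl-tRNA synthetase gene, was the only gene with 100 or more reads past a fold of 2 in opposite directions in the 2 pairs. It was at 59.4 FPKM in WT/FE and 145 in MA9/FE but at 102 in WT and 35.1 in MA9. The small RNA gene Gm23935 was ordered in the same way, with 41354 and 93020 FPKM in the iron-loaded pair and 66326 and 24334 in the other. The share of reads in rRNA genes was ordered likewise, at 0.0958% in WT/FE and 0.141% in MA9/FE, and 0.162% in WT and 0.0660% in MA9. Any link between these values was not tested.

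**Figure D5:**
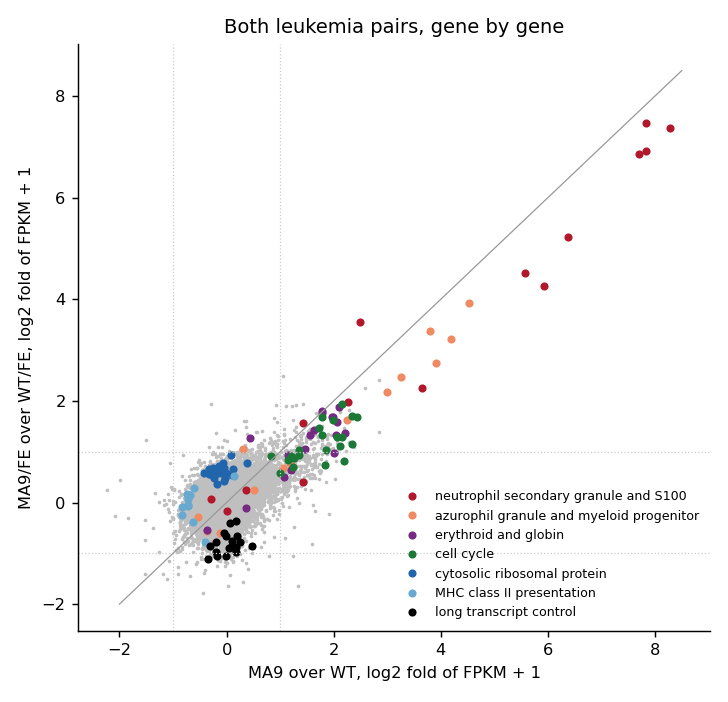
log2 fold of FPKM + 1 for MA9/FE over WT/FE against MA9 over WT, 1 point for each gene that met the limit in both pairs; 7 lists are coloured, dotted lines mark a fold of 2 and the diagonal marks equal folds. Most granule, cell cycle and erythroid genes are high on both axes, all ribosomal protein genes are above 0 and all long transcripts below 0 on the iron axis.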

How the data were processed

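RNA of 6 libraries, 1 a condition, was sequenced on an Illumina NovaSeq instrument. The authors deposited a table of FPKM for each library; the submitters' processing notes name Bowtie2 2.2.5, RSEM and the build mm10, and how FPKM was derived is not given in the sources used here. The deposited FPKM were multiplied by the union exon length in GENCODE M21 (GRCm38, the same build), which 54495 of 54532 genes matched; values then came out as whole reads within 0.05 for 96.8% to 97.0% of genes above 0, which gave depths of 16085342 to 19518365 reads. Where this failed, reads were treated as uncertain.

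Protein-coding genes with FPKM of at least 1 in either library were kept. Fold changes are log2(FPKM + 1) differences after scaling by the trimmed mean of M values (30% of M and 5% of A trimmed at each end), with no test as each condition has 1 library. Length trends were removed by lowess (span 0.3) on log2 exon length. Ratios of reads carry exact conditional 95% intervals for counting error, and ratios against 0 reads were set against 3 reads. Genes named are the 12 largest differences in each direction with 100 or more reads, the 5 largest in each direction without the length trend, the 5 highest FPKM, genes past a fold of 2 in both pairs, and in each list those with the highest mean FPKM or largest fold; Evc, Zfp11, Tmem254c, Gm11084, Gm17545, Rps27a, Gdf15, Creld2, Stmn1, the promoter motifs and list members beyond this rule were chosen after their values were seen. The 43 lists (664 genes, 663 matched) and the comparison itself were chosen with earlier results of these data known. Python 3.11.15, pandas 2.3.3, numpy 2.4.6, scipy 1.17.1, statsmodels 0.14.6 and matplotlib 3.10.9 were used, and the fold calculation was tested on simulated data. Alternatives were other scalings, pseudocounts, limits on FPKM, folds and lengths. The leukemia cell libraries served only as levels beside the macrophages.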

Additional observations from a re-analysis of the deposited data

Results flagged for a closer look

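Effects of opposite sign in the iron-loaded pair (MA9/FE over WT/FE) and the pair without iron (MA9 over WT) are given here for the 7 gene lists, of 17 with medians of opposite sign, whose medians differed by at least 0.5, and for the 1 gene with 100 or more reads that was past a fold of 2 in both; with 1 library a condition none of these differences was tested. The median log2 fold of the cytosolic ribosomal protein genes was 0.63 with iron and -0.16 without, and that of the long transcripts -0.86 and 0.07. The genes of the mitochondrial genome were at 0.49 and -0.09, the C1q and complement genes at 0.40 and -0.11, and the T cell genes at 0.54 and -0.02. MHC class II genes were at 0.015 and -0.71 and natural killer cell genes at 0.094 and -0.42. Lars2 had a log2 fold of 1.24 with iron and -1.51 without.

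Signals outside the protein-coding genes were also higher in MA9/FE than in WT/FE macrophages. The antibody constant region genes, which B lineage cells express, were at 26598 FPKM in MA9/FE and 9719 in WT/FE for Igkc, at 11035 and 5822 for Ighm, and at 4253 and 917 for Ighg2c. The small RNA gene Gm23935 was at 93020 and 41354. With 1 library a condition, no library was examined for standing apart from replicates of its group.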

How the results depend on the processing

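No paired analysis was possible because each condition has 1 library, and for the same reason no replicate could be left out. The counts of genes past a fold of 2 in the iron-loaded pair (223 higher, 67 lower) went to 430 and 208 with a pseudocount of 0.1, to 126 and 112 with the length trend removed, to 102 and 37 with a limit of 10 FPKM, to 1098 and 588 at a fold of 1.5 and to 19 and 0 at a fold of 4. Without iron (435 and 32) they went to 708 and 101 with a pseudocount of 0.1 and to 187 and 14 with a limit of 10 FPKM; the rest stayed within 1.5 times. The correlation with exon length (-0.504) was -0.636 with a limit of 10 FPKM, -0.642 and -0.300 in the groups of highest and lowest FPKM of 3 (chosen after seeing the data), 0.012 for MA9 over WT, 0.283 for WT/FE over WT and -0.118 for MA9 over WT/FE. The causes were not tested.

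Of list medians, removal of the length trend gave 0.62 for plasma cell, 0.11 for chemokine, 0.36 for respiratory chain, 0.33 for ribosomal protein and 0.64 for heat shock genes and -0.39 for long transcripts. A pseudocount of 0.1 gave 2.18 for azurophil and 1.20 for cell cycle genes and -0.96 for long transcripts. A limit of 10 FPKM gave 1.84 for azurophil, 2.35 for basophil, 0.22 for chemokine, 0.24 for T cell and 0.56 for ribosomal protein genes and -0.94 for long transcripts. With no limit they were 2.12 for S100 and secondary granule genes (3.55 with it), 1.05 for azurophil, 0.12 for chemokine and 0.71 for heat shock genes, and with no scaling 0.67 for ribosomal protein and 0.79 for heat shock genes. None of the 12 lists with a median beyond 0.5 changed sign under the alternatives, nor did any of the 26 genes past a fold of 2 that were recomputed; the other named genes were not. Low genes are limited by counting: 46 of the 223 higher genes were under 1 FPKM in WT/FE.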

Other observations

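Antibody genes outside the protein-coding set differed with leukemia in both pairs. Constant region genes took 2.26% of recovered reads in WT/FE and 4.85% in MA9/FE macrophages, and 1.96% in WT and 3.88% in MA9, against 0.0427% in the MA9/FE leukemia cells. Ighg2c, the heavy chain of the IgG2c class, was at 158 FPKM in WT and 4388 in MA9, close in level to MA9/FE. These values lie beside the plasma cell genes Jchain (601 and 1686 FPKM in the iron-loaded pair) and Mzb1, a chaperone of antibody assembly (289 and 679, from reads that did not come out whole). The summed FPKM of the B cell markers did not follow them, at 2665 and 2724 with iron and 2803 and 1610 without.

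Among genes past a fold of 2 in opposite directions in both pairs, Tmem254c (2.71 and 0.196 FPKM in WT/FE and MA9/FE, log2 fold -1.65) and Gm11084 (15.5 and 7.21, -1.05, a gene with 69 bases of exon) rest on fewer than 100 reads. Genes higher in MA9/FE and outside all lists included Rps27a, a ribosomal protein fused to ubiquitin (108 and 421 FPKM), Gdf15, a stress-induced cytokine (1.54 and 8.73), Creld2, a protein of the endoplasmic reticulum (49.7 and 155), and Stmn1, a microtubule regulator of dividing cells (22.2 and 79.5).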
